A study of Mus musculus with 32 samples.

Results

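The mitotic programme was followed through 10 genes, Mki67, Top2a, Cdk1, Ccnb1, Ccnb2, Ccna2, Birc5, Aurkb, Cdc20 and Plk1, across hippocampus, whole meninges and sorted meningeal lymphatic endothelial cells (LECs). They were taken by symbol, and all 10 were found among the 22337 genes of the tables. The mice were 6-month-old males on a C57BL/6J background in 3 conditions: WT, which were littermates without the transgenes; 5xFAD, which carry mutated human transgenes of familial Alzheimer's disease under the regulatory sequence of Thy1 and so make amyloid from neurons; and 5xFAD+L, which received near-infrared light through the shaved scalp under anaesthesia in repeated sessions over several weeks, while the untreated 5xFAD mice were handled alike under room light. There were 4 hippocampi per condition, and 4 WT, 3 untreated and 3 light-treated samples each of meninges and of LECs. The LECs were gated as CD45-negative, CD31-positive, PDPN-positive cells.

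A cell that divides copies its DNA and then separates it, and the genes for these steps are silent in resting cells. Cyclins A and B activate the kinase CDK1 to start mitosis, Aurora B and survivin guide chromosome attachment, and CDC20 lets the anaphase-promoting complex destroy the cyclins. In the adult hippocampus, neural progenitors, oligodendrocyte precursors and microglia can divide, and microglia are known to multiply around amyloid plaques.

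The promoters of such genes commonly hold CCAAT boxes, which bind NF-Y, and cell cycle genes homology regions (CHR), which bind MuvB complexes. Of the 10 genes, 8 had an entry in the RefSeq promoter table (GRCm38.p6), and Ccna2 and Aurkb had none. Within the 300 bases from 250 before to 50 after the start, a CHR, searched as TTTGAA or TTCGAA on both strands, was found in 6 of these 8 and in 19.2% of 32851 promoters. A CCAAT, searched on both strands, was found in 7 of 8 and in 37.4% of all promoters. Mki67, Top2a, Cdk1, Ccnb2, Cdc20 and Plk1 held both, Ccnb1 held CCAAT alone, and Birc5 held neither of these letter strings. The last 100 bases before and the first 10 bases after the start are shown for the 4 genes that changed in the hippocampus, each from the minus strand, with the matches of either motif in capitals. No match of one motif overlapped a match of the other in these windows.
Cdk1, chr10:69352903-69353012: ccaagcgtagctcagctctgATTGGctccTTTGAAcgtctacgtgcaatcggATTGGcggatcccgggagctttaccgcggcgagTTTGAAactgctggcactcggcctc
Cdc20, chr4:118437334-118437443: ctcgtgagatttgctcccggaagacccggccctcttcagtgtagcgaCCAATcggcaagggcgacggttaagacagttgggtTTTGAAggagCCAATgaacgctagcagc
Ccnb2, chr9:70421545-70421654: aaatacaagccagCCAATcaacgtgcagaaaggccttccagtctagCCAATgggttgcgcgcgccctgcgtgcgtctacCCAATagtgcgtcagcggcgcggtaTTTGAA
Ccnb1, chr13:100786477-100786586: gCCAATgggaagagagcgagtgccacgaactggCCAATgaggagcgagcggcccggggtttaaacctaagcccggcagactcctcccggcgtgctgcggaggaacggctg

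Total counts per sample were 13952825 to 23856476 in hippocampus, 6601143 to 14708202 in meninges and 14231415 to 24207326 in LECs, of which the 10 genes together took 81.2 to 371, 262 to 1300 and 1.03 to 1252 counts. Values are given as FPKM, fragments scaled by transcript length and library size, and tests were run on the counts with edgeR. A gene was called when its Benjamini-Hochberg adjusted p was below 0.05 and its change at least 2-fold. Thy1, whose regulatory sequence drives the transgenes, was at 170 to 189 FPKM in WT hippocampus and at 407 to 622 and 434 to 522 FPKM in untreated and light-treated 5xFAD hippocampus. In LECs the lymphatic markers went against the label in WT replicates 2 and 4, whose 8 markers summed to 49.3 and 55.7 FPKM against 1171 to 9718 FPKM in the other 8 libraries.

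In hippocampus the mitotic genes were low in WT mice and higher in untreated 5xFAD mice. Their summed level was 2.43 to 3.27 FPKM in the 4 WT mice, 6.16 to 9.58 FPKM in the 4 untreated 5xFAD mice and 5.82 to 7.36 FPKM in the 4 light-treated mice. Both 5xFAD groups lay wholly above WT and overlapped each other.

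**Figure D1:**
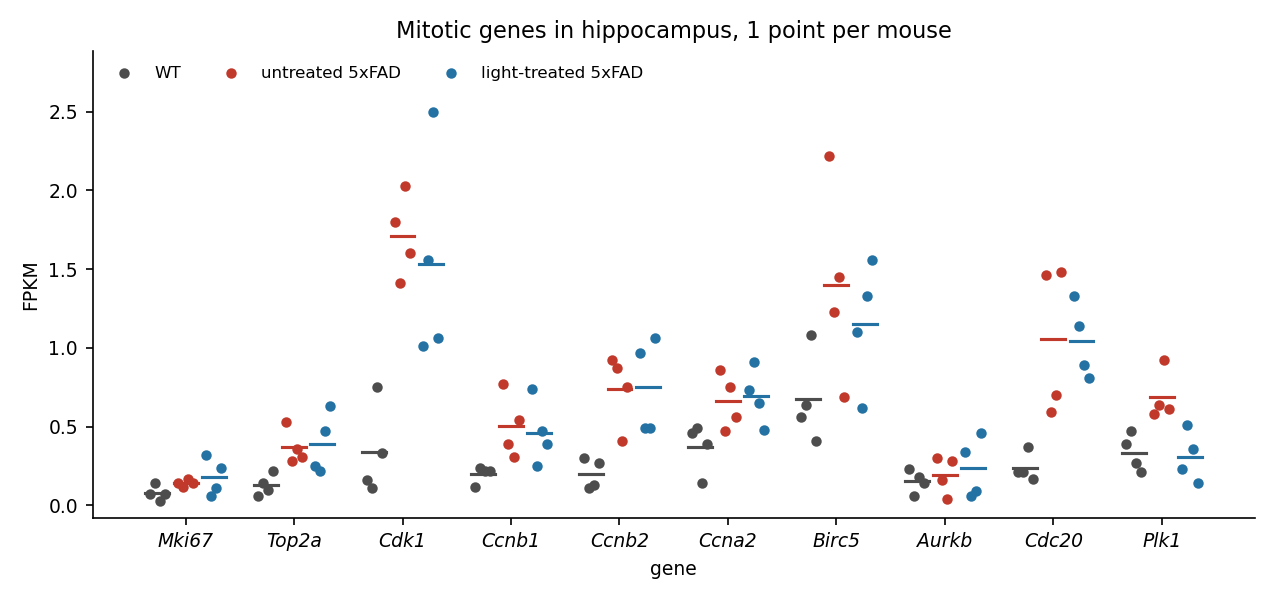
FPKM of the 10 mitotic genes in hippocampus, with 1 point per mouse, 4 mice per condition and a line at the mean. Cdk1 and Cdc20 stand clear of WT in both 5xFAD groups, while Aurkb overlaps in all 3 conditions.

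Cdk1, the kinase that drives entry into mitosis (chromosome 10, 69335146 to 69352938, GRCm38), was at 0.16, 0.11, 0.75 and 0.33 FPKM in WT replicates 1 to 4. It was at 1.80, 1.41, 2.03 and 1.60 FPKM in untreated 5xFAD mice and at 1.01, 1.56, 2.50 and 1.06 FPKM in light-treated mice. Every 5xFAD mouse of either group was above every WT mouse, and the untreated and light-treated mice overlapped. The log2 fold change of untreated 5xFAD over WT was 2.46 (SE 0.52, edgeR adjusted p = 0.00927), and that of light-treated 5xFAD over WT was 2.43 (SE 0.52, adjusted p = 0.0166). The call of light-treated mice was lost in 3 of 12 fits that left out 1 library (WT replicates 1 and 4, light-treated replicate 3), with adjusted p up to 0.0732. Light-treated and untreated mice differed by -0.03 on the log2 scale (SE 0.44, adjusted p = 0.977).

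Cdc20, the activator of the anaphase-promoting complex (chromosome 4, 118432901 to 118437352), was at 0.21, 0.21, 0.37 and 0.17 FPKM in WT mice. It was at 1.46, 0.59, 0.70 and 1.48 FPKM in untreated and at 1.33, 1.14, 0.89 and 0.81 FPKM in light-treated 5xFAD mice. Again all 8 mice with the transgenes were above the 4 without, with no separation by treatment. The log2 fold change over WT was 2.11 (SE 0.41, adjusted p = 0.0056) in untreated and 2.04 (SE 0.41, adjusted p = 0.0115) in light-treated 5xFAD mice, and the difference between these groups was -0.07 (SE 0.36, adjusted p = 0.942). The call of light-treated mice was lost without WT replicate 1 and without WT replicate 4, with adjusted p up to 0.0509. Cdc20 overlaps Elovl1 on the other strand by 53 of its 1868 exonic bases, and these libraries do not keep the strand. Elovl1 was at 10.5 to 14.5 FPKM in WT and 17.6 to 21.2 FPKM in untreated 5xFAD mice, and its part in the Cdc20 values was not tested.

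These 2 genes and Birc5 were the only members that reached the expression filter, which asked for 1 FPKM or more in 3 or more of the 12 samples. Cdk1 and Cdc20 reached it only through the 5xFAD mice, since no WT value of either was at 1 FPKM, so their number says nothing of the list. Among the 12981 genes tested, 4.28% were called between untreated 5xFAD and WT mice and 2.36% between light-treated 5xFAD and WT mice. Without any filter all 10 genes were tested among 20292, and Cdk1, Cdc20 and Ccnb2 were called against a background of 3.36%. With a filter on the mean count over the 12 samples, at least 10, chosen after the data were seen, 9 members were tested and Cdk1, Cdc20, Ccnb2 and Ccnb1 were called, while 4.58% of 14574 genes were. These 4 had mean counts of 6.25 to 8.0 in WT mice and so passed this filter too through the 5xFAD mice, and their number again says nothing of the list. Aurkb, the kinase of the chromosomal passenger complex, fell below it, with 1 to 15 counts per sample. The values below for the other members come from that fit.

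Ccnb2, a B-type cyclin that partners CDK1 (chromosome 9, 70407692 to 70421547), was at 0.30, 0.11, 0.13 and 0.27 FPKM in WT mice. It was at 0.92, 0.87, 0.41 and 0.75 FPKM in untreated and at 0.97, 0.49, 0.49 and 1.06 FPKM in light-treated 5xFAD mice. No 5xFAD value reached down to the WT range. Its log2 fold change over WT was 1.83 (SE 0.46, adjusted p = 0.0253) in untreated and 1.85 (SE 0.46, adjusted p = 0.0418) in light-treated mice.

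Ccnb1, the main mitotic B-type cyclin (chromosome 13, 100778650 to 100786570), was at 0.12, 0.24, 0.22 and 0.22 FPKM in WT mice. It was at 0.77, 0.39, 0.31 and 0.54 FPKM in untreated and at 0.74, 0.25, 0.47 and 0.39 FPKM in light-treated 5xFAD mice. The groups with the transgenes were again wholly above WT, by as little as 0.24 against 0.25 FPKM for light-treated mice. The log2 fold change was 1.44 (SE 0.40, adjusted p = 0.0417) in untreated and 1.06 (SE 0.41, adjusted p = 0.205) in light-treated mice. Both cyclin calls were fragile: leaving out 1 of the 12 libraries ended the Ccnb1 call in 8 of 12 fits and the Ccnb2 call of untreated mice in 5 of 12, with adjusted p up to 0.13 and 0.0773. For Ccnb1 these were each WT library, untreated replicates 1 and 4 and light-treated replicates 3 and 4, and for Ccnb2 they were WT replicates 2 to 4 and untreated replicates 1 and 2. The Ccnb2 call of light-treated mice was lost in 8 of 12 fits (each WT library, untreated replicates 2 and 4, light-treated replicates 1 and 4; adjusted p from 0.0251 to 0.125).

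Top2a, the topoisomerase that untangles replicated DNA, was at 0.06 to 0.22 FPKM in WT, 0.28 to 0.53 FPKM in untreated and 0.22 to 0.63 FPKM in light-treated mice. Its log2 fold change of untreated 5xFAD over WT was 1.52 (SE 0.46, adjusted p = 0.0582), short of the threshold. DESeq2 on the same genes called it, at 1.52 (adjusted p = 0.0194), and also called Top2a in light-treated mice over WT, at 1.61 (adjusted p = 0.02). Mki67, the proliferation marker Ki-67, was at 0.03 to 0.14 FPKM in WT, 0.12 to 0.17 FPKM in untreated and 0.06 to 0.32 FPKM in light-treated mice. Its log2 fold changes over WT were 1.16 (SE 0.47, adjusted p = 0.144) and 1.56 (SE 0.46, adjusted p = 0.0935), and DESeq2 called the second, at 1.57 (adjusted p = 0.0338). Birc5, which encodes survivin, gave 1.06 (SE 0.45, adjusted p = 0.166) for untreated 5xFAD over WT in the first fit, and Ccna2, cyclin A2, gave 0.76 (SE 0.39, adjusted p = 0.252). Ccna2 shares 510 of its 4083 exonic bases with Exosc9, which was at 24.2 to 31.1 FPKM in all 12 mice.

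Counted over FPKM alone, 6 of the 10 genes (Cdk1, Cdc20, Ccnb1, Ccnb2, Top2a and Plk1) were higher in all 4 untreated 5xFAD mice than in all 4 WT mice, against 6.90% of the 20292 genes with no filter. For light-treated mice over WT, 4 of 10 did so (Cdk1, Cdc20, Ccnb1 and Ccnb2), against 5.89%. These comparisons share the WT mice.

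After light, no member was called against untreated 5xFAD mice in hippocampus, where 0.270% of 12981 genes were. Plk1, the polo-like kinase of mitotic entry and spindle assembly, was at 0.58, 0.64, 0.92 and 0.61 FPKM in untreated 5xFAD mice and at 0.23, 0.51, 0.36 and 0.14 FPKM in light-treated mice. All 4 light-treated values were below all 4 untreated values and overlapped the WT values of 0.39, 0.47, 0.27 and 0.21 FPKM. Its log2 difference was -0.98 (SE 0.43, unadjusted p = 0.0407, edgeR adjusted p = 0.257), and 3.09% of the 20292 genes with no filter were likewise wholly lower. The other 8 members in that fit differed between -0.38 (Ccnb1, SE 0.38) and 0.39 (Mki67, SE 0.44) on the log2 scale, with standard errors up to 0.46.

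**Figure D2:**
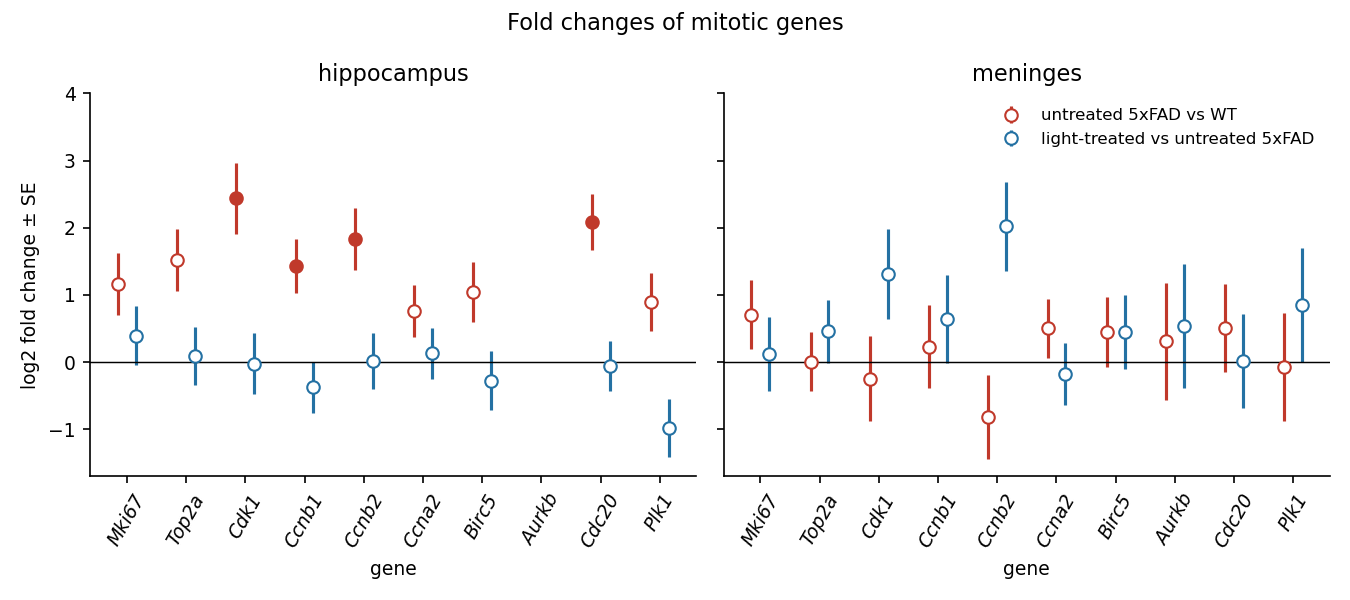
Log2 fold changes with standard errors from edgeR, on genes with a mean count of at least 10, in hippocampus (left) and meninges (right). Filled points passed both thresholds: Cdk1, Ccnb1, Ccnb2 and Cdc20 in untreated 5xFAD over WT hippocampus. Aurkb in hippocampus was not tested.

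The wider cell cycle was less uniform in hippocampus, the only tissue for which it is given here. The other lists held 144 genes: mitotic, replication and G1 genes, and also 7 CDK inhibitors and 8 relatives with roles outside mitosis. Of these 144 genes, 121 were tested in hippocampus, and 3 (2.48%) were called higher in untreated 5xFAD than in WT mice. This was below the 4.58% of all 14574 genes called in either direction. Spc25, a kinetochore subunit, was at 0.42 to 0.67 FPKM in WT and 0.67 to 1.91 FPKM in untreated 5xFAD mice (log2 fold change 1.55, adjusted p = 0.022). Pbk, a mitotic kinase, gave 1.61 (adjusted p = 0.0332), and Ckap2l, a spindle protein, gave 1.32 (adjusted p = 0.0428). Mcm3, a subunit of the replicative helicase, was higher by 0.90 (adjusted p = 0.0278), and Cdk6, a G1 kinase, by 0.76 (adjusted p = 0.026), under 2-fold. Ccne1, the G1/S cyclin E1, fell by 0.41 on the log2 scale (adjusted p = 0.0424). The median log2 fold change was 0.10 over these 121 genes and 0.02 over all 14574 genes. For the 14 tested of the 20 genes in the spindle and kinesin list it was 0.72, with all 14 above 0. The mean count filter, chosen after the data were seen, can keep low genes through the 5xFAD mice. These numbers of called and higher genes therefore say nothing of the lists. The list of 16 subunits and partners of the anaphase-promoting complex had a median of -0.06.

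With the same mean count filter, no gene of these lists was called between light-treated and untreated hippocampus, where 0.103% of 14574 genes were. Cdkn1a, the CDK inhibitor p21, was nearest, at 4.89 to 7.28 FPKM in light-treated against 8.19 to 33.5 FPKM in untreated mice, with no overlap (log2 difference -1.67, SE 0.34, adjusted p = 0.0502). Of the 14574 genes, 576 were likewise wholly lower in light-treated mice. Cdkn1a was at 10.3 to 17.8 FPKM in WT mice, within the untreated range. The fit with the FPKM filter called 0.270% of 12981 genes between light-treated and untreated mice. The values of these lists in that fit are not given here.

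Microglial RNA moved with the mitotic genes in hippocampus. The 8 microglial markers, among them P2ry12, Tmem119 and Sall1, summed to 312 to 357 FPKM in WT, 813 to 1354 FPKM in untreated and 651 to 1052 FPKM in light-treated 5xFAD mice, and 7 markers of plaque-associated microglia to 45.6 to 73.5, 341 to 733 and 251 to 615 FPKM. As a share of the microglial sum, the summed mitotic genes were 0.716% to 0.991% in WT, 0.683% to 0.878% in untreated and 0.649% to 0.990% in light-treated mice, and these ranges overlapped. As a share of the plaque-associated sum they were 4.45% to 5.73%, 1.31% to 2.09% and 1.20% to 2.42%, wholly lower in both 5xFAD groups. An overlap of shares was not particular to microglia: shares of the mature neutrophil sum were 143% to 289%, 80.6% to 253% and 170% to 1058%. In bulk tissue, more cells of a type and more RNA per cell cannot be told apart. Of the 16 marker lists, 6 did not overlap between untreated 5xFAD and WT mice. Of 12981 single genes, 1136 were wholly higher and 752 wholly lower in this comparison. Beside both microglial lists, the markers of mature neutrophils were higher (1.13 to 1.82 FPKM in WT and 3.78 to 8.43 FPKM in untreated mice), as were those of border macrophages (2.86 to 4.98 and 6.64 to 16.3 FPKM) and of smooth muscle and pericytes (17.1 to 22.8 and 22.9 to 31.2 FPKM), while those of hippocampal neurons were lower (3782 to 4159 and 2738 to 3681 FPKM). In light-treated mice these 4 lists overlapped WT, at 0.55 to 4.12, 2.41 to 5.94, 16.8 to 20.5 and 3595 to 4029 FPKM. Against untreated mice, border macrophage and smooth muscle and pericyte markers were wholly lower in light-treated mice. Mature neutrophil and hippocampal neuron markers overlapped between the treated and untreated groups. The lists of T and natural killer cells and of lymphatic and blood endothelium were wholly higher in light-treated than in WT mice, and that of mature B and plasma cells wholly lower. Of the 12981 single genes, 952 were wholly higher and 976 wholly lower there. Mature B and plasma cell markers were also wholly lower than in untreated mice. In that comparison 3 of the 16 lists were wholly lower, as were 516 of the 12981 genes. Markers of the other dividing lineages overlapped between the groups: oligodendrocyte precursor markers summed to 25.7 to 32.1, 27.2 to 33.1 and 23.9 to 31.7 FPKM, and those of adult-born neurons to 49.3 to 75.2, 41.5 to 98.6 and 34.7 to 124 FPKM. Leptomeningeal fibroblast markers summed to 2715 and 2625 FPKM in untreated 5xFAD replicates 2 and 3, against 362 to 1418 FPKM in the other 10 libraries, and without both libraries the same number of members, 4, was called against WT. The part of each marker list in the result was not tested.

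**Figure D3:**
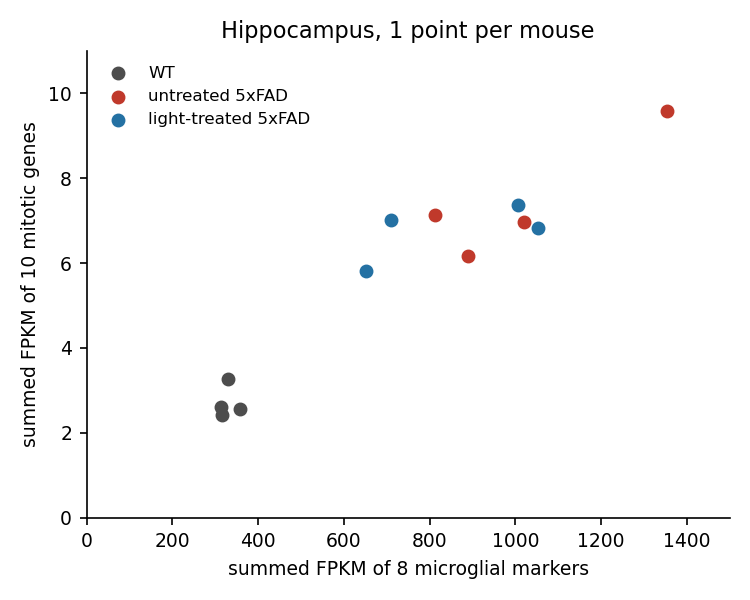
Summed FPKM of the 10 mitotic genes against summed FPKM of 8 microglial markers in each hippocampus. The 4 WT mice lie at 312 to 357 and 2.43 to 3.27 FPKM, below the 8 mice with the transgenes on both axes, which do not separate by treatment.

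By likeness over the 12 hippocampal samples, the genes whose log2(FPKM + 1) followed the mean of the 10 members best, among 12143, were Tent5c, Adora3, Cxcl16, C1qb and Gbp3 (Pearson r 0.991, 0.982, 0.982, 0.982 and 0.981), followed by Ptpn6, Ctss, Cd37, Cyba and Psmb8. C1qb, a complement subunit made by microglia, was at a mean of 107 FPKM in WT, 507 FPKM in untreated and 387 FPKM in light-treated mice. The points share 3 conditions. Between the members themselves the median r over 45 pairs was 0.49 over all 12 samples and 0.12 for deviations from the group means.

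In meninges the mitotic genes were higher than in hippocampus already in WT mice. All 9 members that passed the filter were called higher in WT meninges than in WT hippocampus. In this comparison 51.4% of 15132 genes were called in either direction. Mki67, Top2a, Ccnb1, Ccna2 and Aurkb were below 1 FPKM in every hippocampus and passed only through meninges. Ccnb2 passed through meninges too, as its only hippocampal value of 1 FPKM or more was 1.06 FPKM in light-treated replicate 4. The number of called members therefore says nothing of the list. Without any filter 9 of the 10 genes were called, as were 9996 of 21649 genes. Mki67 led with a log2 difference of 3.43 (SE 0.54, adjusted p = 9.07e-06), then Top2a with 3.25 (SE 0.48, adjusted p = 3.85e-06) and Cdk1 with 3.19 (SE 0.63, adjusted p = 0.00014). Plk1, tested only with the mean count filter, differed by 0.45 (SE 0.58, adjusted p = 0.489). The tissues were compared within 1 table but differ in cell makeup. The neutrophil precursor markers summed to 3.44 to 28.3 FPKM in WT meninges and 1.22 to 2.39 FPKM in WT hippocampus. Pro-B and pre-B cell markers summed to 28.1 to 35.4 and 0.78 to 1.23 FPKM, and erythroid markers to 3367 to 11915 and 148 to 241 FPKM. The part of these lists in the result was not tested.

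**Figure D4:**
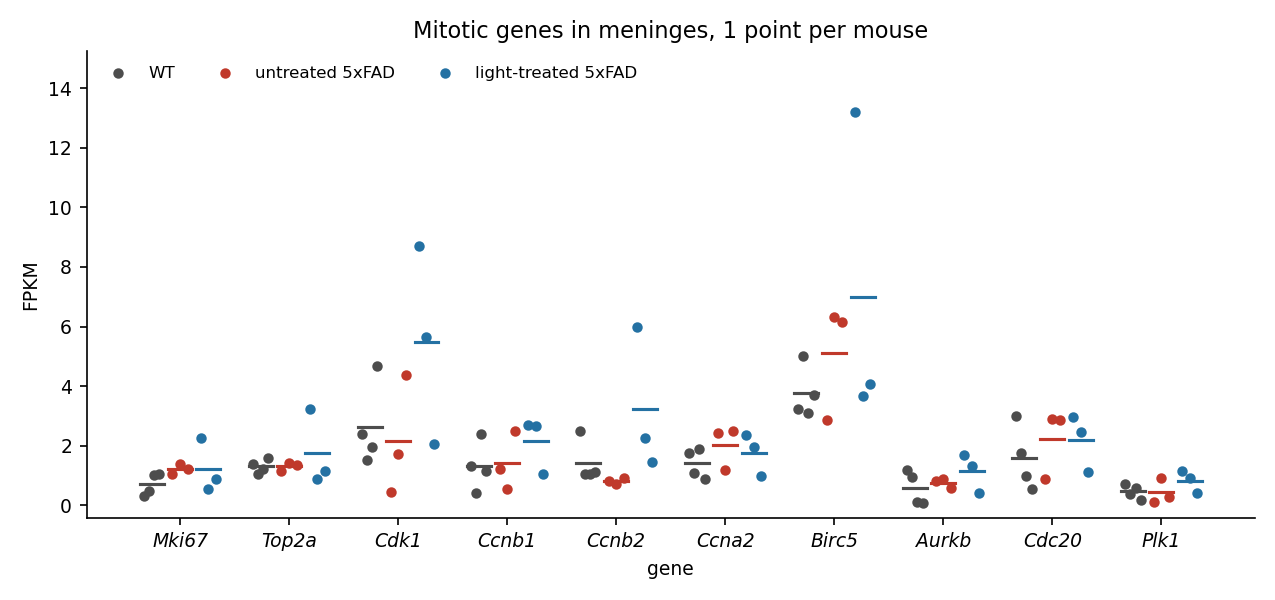
FPKM of the 10 mitotic genes in meninges, with 1 point per mouse (4 WT, 3 untreated and 3 light-treated 5xFAD) and a line at the mean. The highest points of Birc5, Cdk1, Ccnb2 and Top2a, at 13.2, 8.69, 5.99 and 3.23 FPKM, come from light-treated replicate 1.

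Between untreated 5xFAD and WT meninges no member was called, nor was any of the 14318 genes (0%; 574 had an unadjusted p under 0.05, and DESeq2 also called 0 genes). The members' log2 fold changes ran from -0.81 (Ccnb2, SE 0.62) to 0.71 (Mki67, SE 0.52). Ccnb2 was at 2.50, 1.06, 1.05 and 1.12 FPKM in WT mice and at 0.81, 0.72 and 0.92 FPKM in untreated 5xFAD mice, wholly lower, as were 2.65% of genes. The difference of this contrast from that in hippocampus was -2.67 for Ccnb2 (SE 0.77, adjusted p = 0.0838) and -2.66 for Cdk1 (SE 0.87, adjusted p = 0.146), and no member was called while 1.69% of 15132 genes were. With DESeq2 and with the replicate number as a block, 1 member, Ccnb2, was called, with adjusted p = 0.0369 and 0.0435.

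After light, Ccnb2 showed the largest difference among the meningeal members. It was at 5.99, 2.26 and 1.45 FPKM in light-treated mice, all above the 0.72 to 0.92 FPKM of untreated mice. The log2 difference was 2.00 (SE 0.65, unadjusted p = 0.0089, adjusted p = 0.297), and 10.1% of 14318 genes were wholly higher in this comparison of 3 with 3 mice. Cdk1 was at 8.69, 5.65 and 2.06 FPKM in light-treated and 0.44, 1.72 and 4.36 FPKM in untreated mice, which overlap (1.29, SE 0.67, adjusted p = 0.433). No member was called, with 0.0140% of genes called. Nor was any member called for the difference of this contrast from that in hippocampus, where 0.971% of 15132 genes were, and Ccnb2 gave 1.96 (SE 0.75, adjusted p = 0.162).

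Light-treated replicate 1 decided much of the size of these differences. It held the highest value of all 10 meningeal libraries for Mki67 (2.25 FPKM), Top2a, Cdk1, Ccnb1, Ccnb2, Birc5, Aurkb and Plk1, but not for Ccna2 or Cdc20. It also had the highest sums of neutrophil precursor markers (114 FPKM against 3.44 to 74), mature neutrophil markers (6657 against 493 to 2728) and erythroid markers (32110 against 3367 to 12109), and Elane, a neutrophil granule protease, was at 46.3 FPKM. The sums of pro-B and pre-B cell (59.9 FPKM), T and natural killer cell (57.9 FPKM), border macrophage (568 FPKM) and microglial markers (736 FPKM) were also highest there. The pro-B and pre-B cell markers were wholly higher in light-treated meninges (35.5 to 59.9 FPKM) than in untreated ones (30.2 to 33.6 FPKM). They were at 28.1 to 35.4 FPKM in WT. The other 15 marker lists overlapped, and 10.1% of 14318 genes were wholly higher. Leptomeningeal fibroblast markers were wholly lower in untreated (7718 to 14820 FPKM) and light-treated meninges (9545 to 14978 FPKM) than in WT (15863 to 21290 FPKM). Untreated against WT, the other 15 lists overlapped, and 2.65% of genes were wholly lower. Light-treated against WT, 2 lists were wholly lower, 1 was higher and 13 overlapped. Without light-treated replicate 1, the log2 difference of light-treated from untreated mice was 1.11 (SE 0.67, adjusted p = 0.504) for Ccnb2 and 0.61 (SE 0.72, adjusted p = 0.76) for Cdk1, and for Mki67, Top2a and Birc5 it was -0.75, -0.42 and -0.50. Light-treated and WT meninges did not differ by call for any member (0.0140% of genes called), and the largest value was 1.19 (Ccnb2, SE 0.58, adjusted p = 0.322). The part of the marker lists in these values was not tested.

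Among the genes most alike to the members over the 10 meningeal samples, of 13210 compared, were Car1, Ms4a4c, Igsf6 and Dock8 (Pearson r 0.958, 0.903, 0.896 and 0.877), then Ms4a3, Oasl2, Ighv6-6, Srbd1 and Oas1g. Car1 is a carbonic anhydrase of red cell precursors and Ms4a3 a marker of granulocyte and monocyte progenitors. Over the 45 pairs of members the median r was 0.41, and 0.38 for deviations from the group means. All these correlations include light-treated replicate 1.

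In sorted LECs the mitotic genes were mostly listed at 0. Plk1 was at 0 in all 10 libraries, and Ccnb1 and Aurkb had at most 1 count. By counting error alone, a count of 0 allows up to 3 counts in a library. Birc5 was above 0 in 9 of the 10 libraries, and each other member in 0 to 3. In WT replicate 3, Mki67 was at 6.46, Cdk1 at 8.51, Ccna2 at 7.61 and Birc5 at 21.8 FPKM, with Top2a at 0.13 FPKM and Ccnb1, Ccnb2, Aurkb and Plk1 at 0. Top2a was at 3.99 FPKM in untreated 5xFAD replicate 1 and at 0 in the other 2 untreated libraries. Ccnb2 was at 2.14 FPKM in WT replicate 4, 1 of the 2 libraries poor in lymphatic markers.

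**Figure D5:**
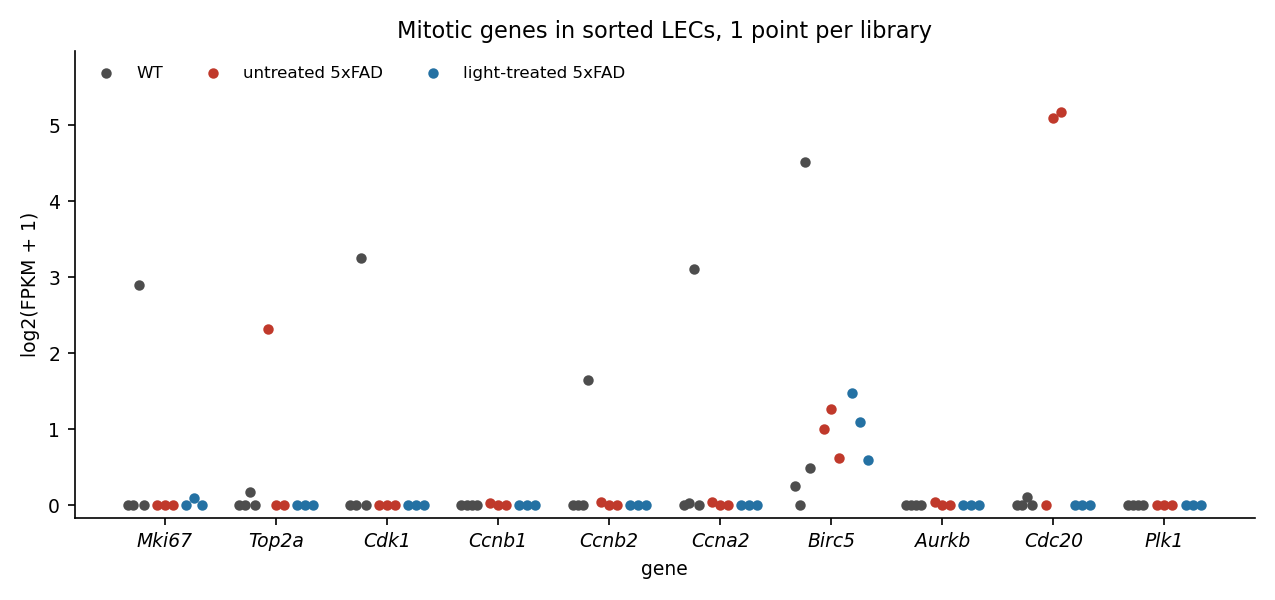
Log2(FPKM + 1) of the 10 mitotic genes in sorted LECs, with 1 point per library (4 WT, 3 untreated and 3 light-treated 5xFAD). Most points lie at 0, and the high points come from WT replicate 3, WT replicate 4 and untreated 5xFAD replicates 1, 2 and 4.

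Cdc20 was at 33.3 and 35.2 FPKM in untreated 5xFAD replicates 2 and 4, from 861 and 1147 counts, and at 0 to 0.08 FPKM in the other 8 libraries. Elovl1, its overlapping neighbour, was at 40.7 and 90.02 FPKM in those 2 libraries and at 157 to 293 FPKM in the light-treated libraries, where Cdc20 was at 0. Birc5 was the only member tested by the FPKM filter, at 0.19, 0, 21.8 and 0.41 FPKM in WT, 1.00, 1.40 and 0.54 FPKM in untreated and 1.78, 1.14 and 0.51 FPKM in light-treated libraries. Its log2 fold change of untreated 5xFAD over WT was -1.11 (SE 2.62, adjusted p = 1), and none of the 8188 genes was called (0%; 312 at an unadjusted p under 0.05, and 185 called by DESeq2). Light-treated over untreated 5xFAD gave 0.27 (SE 2.72, adjusted p = 1), with 0% called (328 at an unadjusted p under 0.05, and 357 by DESeq2), and light-treated over WT gave -0.83 (SE 2.60), with 0.0122% called. Leaving out the 2 WT libraries poor in lymphatic markers, no member was called either. The biological coefficient of variation was 1.89 in LECs, against 0.198 in hippocampus and 0.350 in meninges. With a spread this wide, differences of several-fold can go uncalled by edgeR in LECs.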

How the data were processed

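RNA-seq libraries were made by the authors with a Smart-seq2 protocol, which does not mark strand, from 1 mouse per sample. Per the study's methods, reads were filtered with fastp and quantified with RSEM. The submitters' processing notes also name Trimmomatic, HISAT2, StringTie and mm10, with no role. The authors deposited RSEM expected counts per gene and FPKM values, scaled by transcript length and library size. No column was left unused for want of a sample.

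The rounded expected counts went into edgeR 4.0.16 (R 4.3.3; TMM scaling, quasi-likelihood test), with the 3 conditions of a tissue in 1 fit and hippocampus and meninges together for comparisons between tissues. A gene was tested where 3 or more samples reached 1 FPKM, and p values were adjusted over all of them. Replicates are separate mice. Their counts differed beyond sampling noise, so none was counted as a repeat. Alternatives were median-of-ratios scaling, other filters (none, filterByExpr, and, added after the data were seen, a mean count of at least 10), no fold threshold, DESeq2 1.42.0, limma 3.58.1 on log2(FPKM + 1) and log2(FPKM + 0.1), only the 2 groups compared, the replicate block, and leaving out libraries. The scripts were tested on simulated data. Members were always named. From the other cell cycle lists, genes past the thresholds were named, otherwise the 2 with the smallest p of a list as values. Likeness used genes with a mean FPKM of at least 1 outside the lists. In meninges, 1 of the 10 genes this rule names is not reported here. The members, the gene lists and the marker lists were chosen with earlier results of these data known. Gene positions are from GENCODE vM21 (GRCm38).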

Additional observations from a re-analysis of the deposited data

Results flagged for a closer look

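In groups of 4 samples, a value was singled out when its gap to the nearest other sample exceeded Dixon's 95% critical share of the group's range. Of 47 groups tested, 9 were singled out. Chance gives about 1 in 20, but that share does not hold in WT LECs: for 5 of the 9 the other 3 libraries were all at 0, where any value above 0 meets the criterion, and 6 of the 9 come from 1 library. In WT LECs, replicate 3 stood apart for Mki67 (6.46 FPKM against 0), Cdk1 (8.51 against 0), Ccna2 (7.61 against 0.02 at most), Birc5 (21.8 against 0.41), Top2a (0.13 against 0) and Cdc20 (0.08 FPKM, from 1 count, against 0), and replicate 4 stood apart for Ccnb2 (2.14 against 0). In WT meninges, replicate 1 was high for Ccnb2 (2.50 against 1.12 FPKM at most). In WT hippocampus, replicate 1 was low for Ccnb1 (0.12 against 0.22 FPKM at least). Groups of 3 were not tested this way. In edgeR fits of all libraries without the replicate block, no member's change between conditions differed between meninges and hippocampus past the adjusted threshold. With the block, that of Ccnb2 did in untreated 5xFAD over WT (adjusted p = 0.0435).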

How the results depend on the processing

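In hippocampus, the 2 members called in untreated 5xFAD over WT became 4 with filterByExpr, 4 with the mean count filter, 1 with limma on log2(FPKM + 1), where Cdc20 fell under 2-fold, and 1 in a fit of only the 2 groups compared, in which 2 members were tested. The 2 called in light-treated 5xFAD over WT became 0 with limma on log2(FPKM + 1) and 1 with only the 2 groups compared. With the mean count filter, DESeq2 called 5 members in light-treated 5xFAD over WT where edgeR called 3, and 1 member each in LECs for untreated 5xFAD over WT and for light-treated over untreated 5xFAD where edgeR called 0. Of the 9 called higher in WT meninges, 3 remained called with limma on log2(FPKM + 1). For the difference between tissues in untreated 5xFAD over WT, where 0 were called, DESeq2 called 1, the replicate block 1, and with the mean count filter both again called 1. Leaving out 1 library gave 2 members in every fit for untreated 5xFAD over WT (2 to 4 with the mean count filter), 0 to 2 for light-treated 5xFAD over WT (0 to 4), 8 to 9 for WT meninges over WT hippocampus (8 to 9), and 0 in the other comparisons, save 0 to 1 for the first difference between tissues with the mean count filter. WT replicates 1 and 4 each ended both calls in light-treated 5xFAD over WT, and light-treated replicate 3 ended that of Cdk1. With the mean count filter, WT replicate 2, WT replicate 3 and untreated replicate 1 each left 2 called in untreated 5xFAD over WT. Without light-treated replicate 1, light-treated over WT meninges turned from above to below 0 for Mki67 (-0.044, against up to 1.20 without another library), Top2a (-0.41, up to 0.81) and Birc5 (-0.036, up to 1.24). Beyond these 3, 95 of 2009 values of single members under alternatives changed sign, all for members within 1 standard error of 0. Same-numbered samples of different conditions within a tissue did not in general deviate together, so the numbers were not read as pairs. Their correlations were -0.244 to 0.093 over 12 pairs in hippocampus and -0.04 to 0.014 over 8 in LECs. In meninges they were -0.316 to 0.256 over 9 pairs, of which 2 were above 0.1. Whether same-numbered hippocampus and meninges came from the same mouse was not tested, and comparisons between tissues treated all libraries as independent. With the replicate block, 2, 0 and 2 members were called in the 3 hippocampal comparisons and 8 of 9 between the tissues, where Aurkb was lost (adjusted p = 0.0595). With the mean count filter the block left 3 called in untreated 5xFAD over WT. The cause of these changes was not tested. Member counts of 1 to 57 per hippocampal library limit what can be seen there.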
